A study of Mus musculus and Rattus norvegicus with 12 samples.

Results

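Gene expression of 3 mouse pXEN lines was compared with that of 2 mouse embryonic stem (ES) lines, which are 5 of the 12 samples in a study of cultured extraembryonic endoderm from mouse and rat blastocysts. The lines were chosen by their titles, and each value is a reverse-strand read count per gene. The lines pXEN2 (male), pXEN4 (female), pXEN6 (female), ES2 (male) and ES3 (female) were of the ICR strain, came from blastocysts and were derived independently, so the spread between replicates is the spread between lines. They were collected after 2 days of culture, at passages 17 to 21 for pXEN and 14 to 16 for ES. The pXEN lines were maintained like the rat XENP lines that were sampled alongside them, and the ES lines in 15% fetal bovine serum with LIF and the pair of kinase inhibitors that block MEK and GSK3. Cell type and culture condition changed together between the groups and cannot be told apart. The 3 mouse XEN lines used for comparison below were XEN1 (female), XEN2 (male) and XEN5 (male), at passages 9 to 21 in 20% serum. Where pXEN is set against XEN, line type and culture cannot be told apart either.

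Primitive endoderm arises beside the epiblast in the blastocyst. It gives rise to parietal endoderm, which secretes the thick basement membrane around the conceptus, and to visceral endoderm, which absorbs maternal nutrients. GATA and SOX factors specify this lineage, and FGF signalling through ERK favours it over the epiblast, whereas ES cells are cultured counterparts of the epiblast that depend on Oct4, Sox2 and Nanog.

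Gene counts totalled 2661691 to 3483069 per line, of which the ribosomal RNA precursor Rn45s took 20.7% to 40.0% in pXEN and 38.5% to 50.1% in ES, and 12190 to 12500 genes were detected in a pXEN line against 13934 and 14319 in the ES lines. Levels are CPM values, counts scaled to the TMM-adjusted library size, listed for pXEN2, pXEN4 and pXEN6 and then for ES2 and ES3. Differences are log2(pXEN/ES) ± SE from the quasi-likelihood test of edgeR, and p-values were adjusted by the Benjamini-Hochberg method over all 10895 genes tested, with a threshold of 0.05. The defining markers followed both labels: Gata6, Gata4, Sox17, Sox7, Pdgfra, Dab2, Lama1 and Sparc were higher in each pXEN line than in either ES line, and Pou5f1, Sox2, Nanog, Zfp42, Esrrb, Tdgf1, Utf1 and Fgf4 were lower. The Y-linked gene Ddx3y was at 78.6, 0 and 0 CPM in pXEN and 97.0 and 0 CPM in ES, which follows the labelled sexes.

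The pXEN and ES lines differed in 35.9% of the genes tested. Called genes numbered 1978 higher in pXEN (18.2% of all tested) and 1936 lower (17.8%), with a median log2 difference over all genes of -0.03. Genes were assigned to 45 lists by their known roles, and some belong to several lists. Counts of called members in each list are to be read beside the shares over all genes, 18.2% higher and 17.8% lower. Of the called genes, 233 of those lower had 0 counts in the 3 pXEN lines, and 89 of those higher had 0 counts in both ES lines. The pXEN and ES libraries did not overlap in 3910 of the 3914 called genes, and in 62.8% of all genes tested. Without ES2 the count of higher genes was 1168. In bulk RNA, fewer cells of a type and less RNA per cell cannot be told apart.

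**Figure D1:**
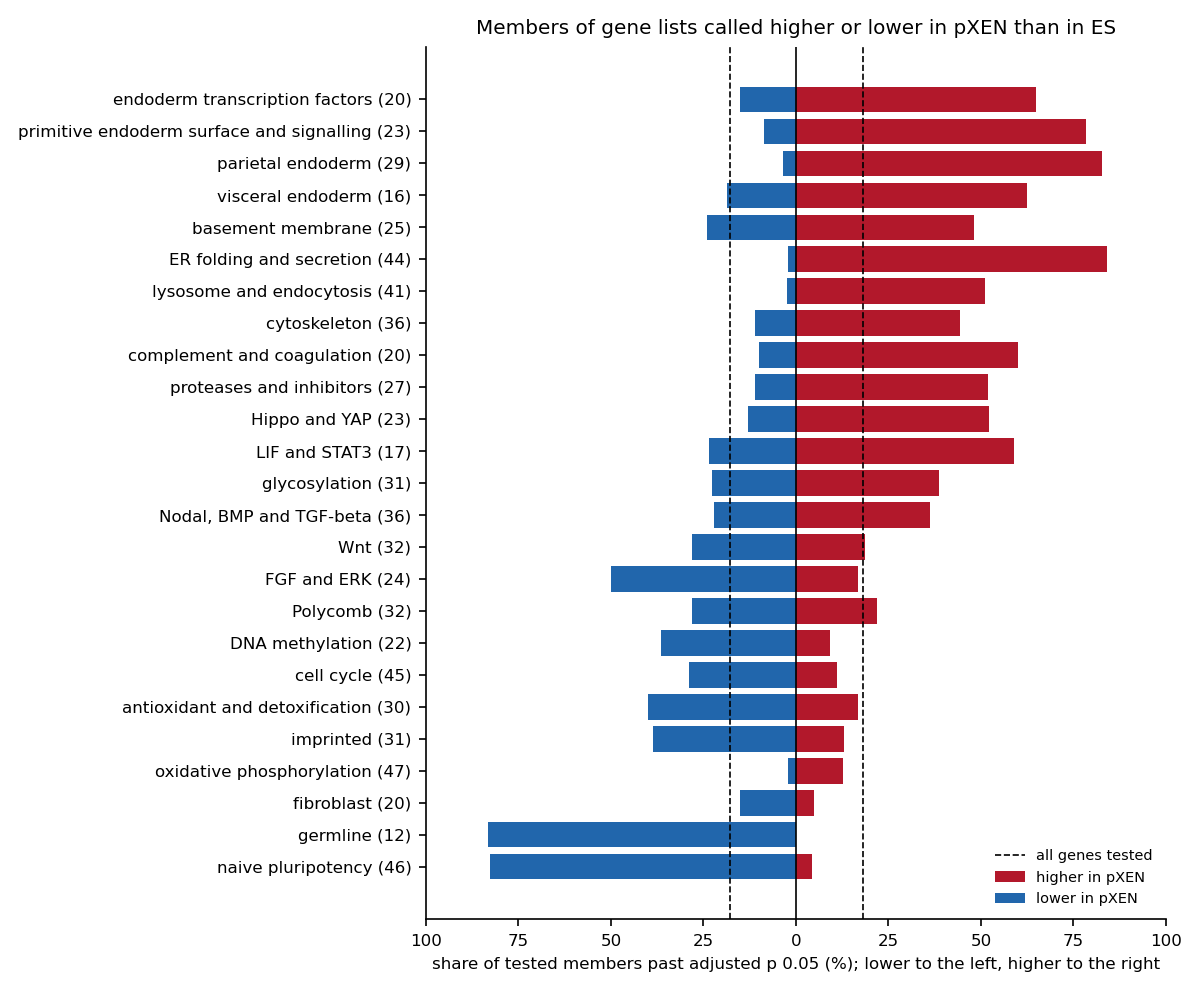
For a selection of the 45 gene lists, bars give the percentage of tested members called higher (right) or lower (left) in pXEN than in ES, with the number tested after each name, and dashed lines give the shares over all genes tested (18.2% and 17.8%). Endoderm, parietal endoderm and secretion lists extend to the right, and pluripotency and germline lists to the left.

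Transcription factors of endoderm were mostly higher in pXEN, led by Gata6, Foxa2, Sox17 and Gata4. Of 20 tested members of the endoderm factor list, 13 were higher and 3 lower, with a median log2 difference of 3.40 against -0.03 for all genes. The summed level of the whole list was 1182 to 1328 CPM in pXEN and 178 to 221 in ES. Gata6, the factor that commits cells to primitive endoderm (chromosome 18, 11052064 to 11085635, plus strand; GRCm38), measured 102, 91.7 and 120.0 CPM in pXEN and 0 and 0 in ES. Foxa2, a forkhead pioneer factor of endoderm, was at 52.6, 118 and 71.7 CPM in pXEN and 0 and 0 in ES. No count of either gene was seen in ES, which made pXEN at least 174-fold higher for Gata6 (adjusted p = 3.02e-06) and at least 135-fold higher for Foxa2 (adjusted p = 1.15e-05).

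Gata4, a partner of Gata6 in endoderm genes, was at 204, 211 and 214 CPM in pXEN and 0.822 and 0.779 in ES (log2 difference 7.96 ± 0.44, adjusted p = 1.65e-06). Sox17, which acts downstream of the GATA factors (chromosome 1, 4490931 to 4497354, minus strand; GRCm38), reached 272, 379 and 361 CPM in pXEN and 1.64 and 0 in ES (log2 difference 8.65 ± 0.63, adjusted p = 6.06e-06). The 3 pXEN lines lay close together for both genes and far above both ES lines. Sox7, the relative of Sox17 found in parietal endoderm, was more uneven at 76.0, 23.6 and 69.7 CPM in pXEN and 0.411 and 1.95 in ES (log2 difference 5.51 ± 0.77, adjusted p = 4.94e-04), with pXEN4 the lowest of the pXEN lines. Creb3l2, a transcription factor that drives the secretory machinery, was at 42.4, 35.6 and 39.0 CPM in pXEN and 0.411 and 1.17 in ES (log2 difference 5.54 ± 0.48, adjusted p = 1.33e-05). Hnf4a, a nuclear receptor of visceral endoderm and liver, differed less, at 18.8, 41.3 and 32.1 CPM in pXEN and 6.58 and 5.07 in ES (log2 difference 2.40 ± 0.40, adjusted p = 8.67e-04). Tcf7l2, a nuclear effector of Wnt signalling, was at 45.1, 84.3 and 38.5 CPM in pXEN and 3.29 and 1.95 in ES (log2 difference 4.40 ± 0.50, adjusted p = 7.84e-05). The TEAD factor Tead4 was at 84.2, 44.1 and 65.1 CPM in pXEN and 10.7 and 17.1 in ES (log2 difference 2.21 ± 0.43, adjusted p = 0.00258).

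The 3 endoderm factors that were lower were Prdm1, Nr5a2 and Eomes. Prdm1, a repressor also used in germ cells, and Nr5a2, a nuclear receptor that also sustains Oct4, had 0 counts in all 3 pXEN lines, against 18.1 and 18.3 CPM for Prdm1 and 31.3 and 21.0 CPM for Nr5a2 in ES. Eomes, a T-box factor of trophoblast and visceral endoderm, was at 0.658, 0.569 and 1.15 CPM in pXEN and 18.1 and 6.63 in ES (log2 difference -3.89 ± 0.71, adjusted p = 0.00153), and without ES2 its adjusted p was 0.0502. Foxa1, Gata5, Hnf4g, Cebpa and 4 other members of the list were too low in the libraries to be tested.

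**Figure D2:**
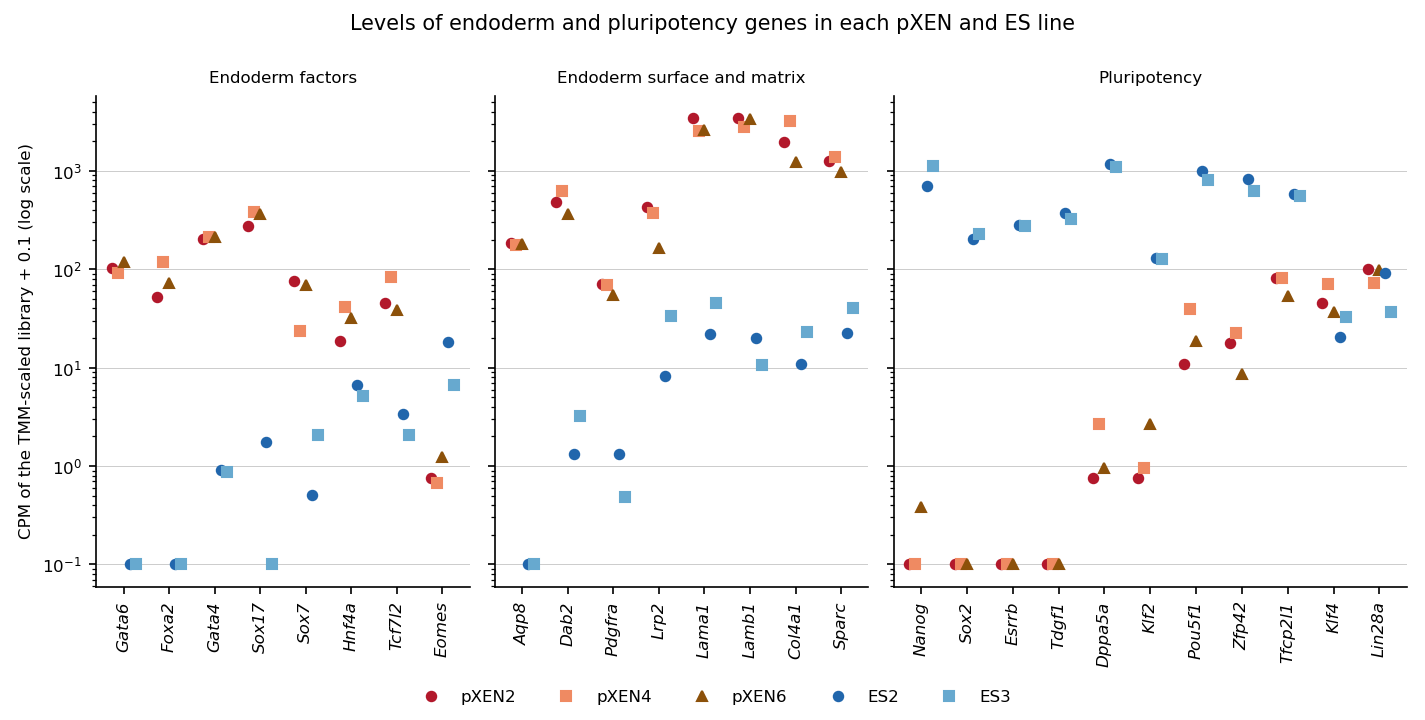
Level of named genes in each of the 3 pXEN and 2 ES lines, as CPM of the TMM-scaled library plus 0.1 on a log axis, grouped by role. Points of the pXEN lines sit above both ES points for the endoderm genes other than Eomes, and below them for the pluripotency genes other than Klf4 and Lin28a.

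Surface and uptake genes of primitive endoderm were also higher, among them the PDGF receptor Pdgfra, the endocytic adaptor Dab2 and the water channel Aqp8. Of 23 tested members of that list, 18 were higher and 2 lower, and the median log2 difference was 6.27 (6.07 with genes at 0 counts set to their bound). Pdgfra was at 70.7, 69.2 and 55.1 CPM in pXEN and 1.23 and 0.390 in ES (log2 difference 6.27 ± 0.47, adjusted p = 5.59e-06). Dab2 was at 482, 624 and 366 CPM in pXEN and 1.23 and 3.12 in ES (log2 difference 7.78 ± 0.59, adjusted p = 9.10e-06). Aqp8 was at 185, 177 and 179 CPM in pXEN with no count in ES, at least 299.8-fold higher (adjusted p = 5.20e-06), and its 3 pXEN values were nearly equal. Bmper, a secreted modulator of BMP signalling, was at 80.3, 133 and 210.4 CPM and again without a count in ES (at least 235-fold higher, adjusted p = 7.89e-05). Srgn, the proteoglycan core protein serglycin, was at 339, 608 and 401 CPM in pXEN and 0 and 1.17 in ES, a ratio of 757-fold (95% interval 259 to 3674).

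The large scavenger receptors of absorbing epithelia, megalin (Lrp2) and cubilin (Cubn), were both higher. Lrp2 was at 431, 371 and 165 CPM in pXEN and 8.22 and 33.5 in ES (log2 difference 3.94 ± 0.68, adjusted p = 0.00232), with pXEN6 the lowest of the pXEN lines. Cubn was at 452, 179.9 and 71.2 CPM in pXEN and 0.822 and 0.390 in ES, a ratio of 374-fold (95% interval 128 to 1815), again with pXEN6 lowest. Its partner amnionless (Amn), which carries cubilin to the membrane, was at 0.658, 8.54 and 0 CPM in pXEN and 0.411 and 0 in ES and was not called (adjusted p = 0.378). Lrpap1, the chaperone of the receptor family, was at 721, 910.0 and 893 CPM in pXEN and 90.1 and 125 in ES (log2 difference 2.97 ± 0.30, adjusted p = 3.44e-05), whereas the relative Lrp1 was lower, at 1.97, 0.854 and 3.44 CPM in pXEN and 12.7 and 22.6 in ES (log2 difference -3.06 ± 0.54, adjusted p = 0.00121). Fgfr1, an FGF receptor, and Pdgfa, the ligand of Pdgfra, were the 2 lower members of the list.

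Genes of parietal endoderm were nearly all higher. Of 29 tested members, 24 were higher and 1 lower (Jam2, a junction protein and ES cell marker), the median log2 difference was 5.22, and the summed level was 19932 to 26049 CPM in pXEN against 735 to 983 in ES. The list held the laminin and type IV collagen chains of the basement membrane. Lama1 was at 3436, 2531 and 2584 CPM in pXEN and 21.8 and 45.6 in ES (log2 difference 6.40 ± 0.55, adjusted p = 3.71e-05). Lamb1 was at 3425, 2798 and 3357 CPM in pXEN and 19.7 and 10.5 in ES (log2 difference 7.72 ± 0.42, adjusted p = 1.65e-06). Lamc1 was at 2865, 1215 and 2718 CPM in pXEN and 73.6 and 159 in ES (log2 difference 4.28 ± 0.59, adjusted p = 7.23e-04). Together these chains form laminin-111, the first laminin laid down by the embryo. The type IV collagen chains Col4a1 and Col4a2, whose genes lie head to head, were both higher, Col4a1 at 1982, 3212 and 1244 CPM in pXEN and 10.7 and 23.0 in ES (log2 difference 6.99 ± 0.99, adjusted p = 0.00160). Col4a2 was at 2683, 7427 and 2478 CPM in pXEN and 6.99 and 38.2 in ES (log2 difference 7.53 ± 1.31, adjusted p = 0.00479). Both collagen chains were lowest in pXEN6, and each pXEN line was far above the ES lines. Sparc, a collagen-binding matrix protein, was at 1259.6, 1377 and 984 CPM in pXEN and 22.6 and 40.5 in ES (log2 difference 5.25 ± 0.45, adjusted p = 2.00e-05).

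Other called members of the list included receptors and secreted proteins, while Thbd, Igfbp4, Gpx3 and Sema6a were tested and not called. Pth1r, the receptor for parathyroid hormone-related peptide, was at 363, 571 and 421 CPM in pXEN and 1.64 and 0 in ES (log2 difference 9.07 ± 0.60, adjusted p = 4.45e-06). Plat, tissue plasminogen activator, was at 141, 162 and 196 CPM in pXEN and 0.822 and 1.56 in ES (log2 difference 7.07 ± 0.40, adjusted p = 1.65e-06). Fst, the activin antagonist follistatin, was at 183, 169 and 236 CPM in pXEN and 5.35 and 5.07 in ES (log2 difference 5.22 ± 0.42, adjusted p = 7.67e-06). Snai1, a repressor of epithelial genes, was at 10.9, 12.0 and 10.9 CPM in pXEN and 0.822 and 0.779 in ES (log2 difference 3.75 ± 0.55, adjusted p = 4.21e-04). Stra6, the uptake receptor for retinol-binding protein, was at 88.8, 51.5 and 96.7 CPM in pXEN and 0.411 and 0 in ES, a ratio of 392-fold (95% interval 70.2 to 15519).

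Visceral endoderm genes were mixed, with uptake receptors and Ihh higher and the apolipoproteins lower or near 0. Of 16 tested members 10 were higher and 3 lower, with a median of 3.83 (3.42 with bounds), and 12 further members were too low to be tested, Afp, Apoa1, Apob and Alb among them. Ihh, the hedgehog ligand of visceral endoderm, was at 13.8, 31.6 and 10.9 CPM in pXEN and 1.23 and 0.779 in ES (log2 difference 4.18 ± 0.70, adjusted p = 9.38e-04). Apoe was lower, at 3.62, 23.1 and 19.2 CPM in pXEN and 792 and 456 in ES (log2 difference -5.33 ± 1.14, adjusted p = 0.0110), and its adjusted p was 0.0536 without ES2. Apoc1 had 0 counts in pXEN and 15.2 and 19.5 CPM in ES. The third lower member was Tdh, a threonine-degrading enzyme of naive ES cells, at 0.987, 1.42 and 0 CPM in pXEN and 48.1 and 30.8 in ES (log2 difference -5.56 ± 0.80, adjusted p = 4.82e-04).

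The basement membrane list as a whole held genes that moved in both directions: of 25 tested members 12 were higher and 6 lower, with a median of 1.75. Beside the laminin-111 chains, Tinagl1, a matrix protein that binds laminin, was at 313, 329 and 179.9 CPM in pXEN and 0.411 and 4.68 in ES (log2 difference 6.71 ± 0.60, adjusted p = 2.74e-05). Fbln2, the matrix glycoprotein fibulin-2, was at 58.6, 22.2 and 46.5 CPM in pXEN and 0 and 0.779 in ES. Col18a1, the collagen from which endostatin is cut, went the other way, at 0, 1.71 and 0 CPM in pXEN and 209.7 and 191 in ES (log2 difference -8.30 ± 0.83, adjusted p = 1.20e-04). Lama5, the laminin chain that replaces Lama1 in later epithelia, was also lower at 11.2, 12.2 and 4.02 CPM in pXEN and 129.5 and 226 in ES (log2 difference -4.28 ± 0.45, adjusted p = 6.83e-05). Lama1 was thus higher and Lama5 lower in each pXEN line than in either ES line. Without ES3 the count of lower members was 2.

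Of 35 tested integrin and adhesion genes 7 were higher and 7 lower (20.0% each), close to the shares over all genes (18.2% and 17.8%). Itgb1, the beta subunit shared by most laminin and collagen receptors, was at 577, 607 and 829.7 CPM in pXEN and 240.1 and 322 in ES (log2 difference 1.26 ± 0.25, adjusted p = 0.00252). Cdh1, which codes for E-cadherin, was at 0, 1.71 and 0 CPM in pXEN and 28.8 and 47.2 in ES (log2 difference -5.91 ± 1.08, adjusted p = 0.00278), although DESeq2 gave an adjusted p of 0.13. P-cadherin (Cdh3) and the tight junction protein Cldn4 had 0 counts in all 3 pXEN lines, against 13.6 and 10.9 CPM for Cdh3 and 64.6 and 112 CPM for Cldn4 in ES. Cdh5, the cadherin of endothelial junctions, was higher, at 83.9, 372 and 208 CPM in pXEN and 0.411 and 0 in ES, a ratio of 1139-fold (95% interval 204 to 45004); its adjusted p was 0.00476, and 0.0514 without ES3. The count of higher members was 4 without ES2 and 3 without ES3. The desmosomal cadherin Dsg2 was uneven among pXEN lines, at 6.58, 60.6 and 0 CPM in pXEN and 33.3 and 66.6 in ES, and was not called.

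Of 36 tested cytoskeleton genes 16 were higher and 4 lower, with a median of 1.28 (0.99 with bounds), and 2 were lower without ES2 and 2 without ES3. Krt8, a keratin of simple epithelia, was at 493, 494 and 474 CPM in pXEN and 11.1 and 17.5 in ES (log2 difference 5.08 ± 0.35, adjusted p = 4.45e-06). Its partner Krt18 was at 75.4, 84.0 and 76.1 CPM in pXEN and 3.29 and 8.18 in ES (log2 difference 3.76 ± 0.53, adjusted p = 4.37e-04). The 3 pXEN lines differed little from one another for either keratin. Tpm4, a tropomyosin, was at 517, 559 and 619 CPM in pXEN and 64.6 and 60.4 in ES (log2 difference 3.18 ± 0.22, adjusted p = 4.45e-06), whereas another tropomyosin, Tpm2, was lower, with 1 count over the 3 pXEN lines and 13 over the 2 ES lines (adjusted p = 0.00804, and 0.0786 without ES2). Cnn2, a calponin, was at 149.7, 90.3 and 171 CPM in pXEN and 8.64 and 11.3 in ES (log2 difference 3.77 ± 0.36, adjusted p = 2.18e-05). Anxa5, an annexin that binds phosphatidylserine, was at 90.5, 96.0 and 77.5 CPM in pXEN and 6.99 and 2.34 in ES (log2 difference 4.24 ± 0.45, adjusted p = 4.77e-05), and the annexin Anxa1 was not called (adjusted p = 0.0624). Galectin-3 (Lgals3) was lower, at 1.65, 0.285 and 0 CPM in pXEN and 63.7 and 56.1 in ES (log2 difference -6.54 ± 0.68, adjusted p = 5.36e-05). The smooth muscle gene Tagln was at 9.87, 9.40 and 8.32 CPM in pXEN and 4.11 and 1.95 in ES (log2 difference 1.60 ± 0.36, adjusted p = 0.00511), with an adjusted p of 0.0671 without ES3.

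The secretory machinery of the endoplasmic reticulum (ER) was higher almost throughout. This compartment folds, modifies and exports matrix proteins, and its chaperones are induced by the factors ATF6 and XBP1, which act on the ER stress response element in promoters. Of 44 tested members of the list 37 were higher and 1 was lower, with a median log2 difference of 1.67 (1.54 with bounds), and the summed level was 13350 to 16099 CPM in pXEN and 3505 to 3835 in ES. The lower member was Trib3, a stress-induced pseudokinase, at 3.29, 4.84 and 4.02 CPM in pXEN and 7.40 and 21.0 in ES (log2 difference -1.80 ± 0.64, adjusted p = 0.0489); it had an adjusted p of 0.471 without ES3, 0.122 without pXEN2, 0.0757 without pXEN4 and 0.104 without pXEN6.

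Serpinh1, the collagen chaperone HSP47, was at 738, 1022 and 1111 CPM in pXEN and 2.88 and 8.18 in ES (log2 difference 7.42 ± 0.57, adjusted p = 1.39e-05). The prolyl hydroxylase subunit P4ha1 was at 475, 553 and 503 CPM in pXEN and 9.46 and 23.8 in ES (log2 difference 4.93 ± 0.38, adjusted p = 6.93e-06). P4ha2 was at 327, 374 and 456 CPM in pXEN and 5.35 and 6.24 in ES (log2 difference 6.05 ± 0.51, adjusted p = 1.59e-05). The lysyl hydroxylase Plod2 was at 1207, 1434 and 1119 CPM in pXEN and 48.5 and 46.4 in ES (log2 difference 4.72 ± 0.27, adjusted p = 1.65e-06), with Plod1 and Plod3 also higher by 4.24 and 3.50 on the log2 scale. The 3 pXEN lines lay above both ES lines for each of these genes.

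Kdelr3, which returns chaperones from the Golgi to the ER, was at 291, 407 and 367 CPM in pXEN and 6.17 and 3.90 in ES (log2 difference 6.13 ± 0.33, adjusted p = 1.65e-06). Its relative Kdelr2 was at 347, 450.1 and 377 CPM in pXEN and 60.9 and 90.4 in ES (log2 difference 2.37 ± 0.30, adjusted p = 1.53e-04). Surf4, a cargo receptor, differed by 2.56 ± 0.28, the translocon pore subunit Sec61a1 by 1.84 ± 0.22 and the COPII coat subunit Sec23a by 1.75 ± 0.26. Several general chaperones were also higher. Hspa5 (BiP) was at 388, 708 and 406 CPM in pXEN and 125 and 142 in ES (log2 difference 1.91 ± 0.40, adjusted p = 0.00407). Hyou1 was at 661, 929 and 1021 CPM in pXEN and 239.7 and 227 in ES (log2 difference 1.90 ± 0.27, adjusted p = 3.24e-04). Pdia3 was at 872, 1194 and 1179.8 CPM in pXEN and 279 and 249 in ES (log2 difference 2.04 ± 0.23, adjusted p = 7.23e-05). Calreticulin (Calr) was at 1072, 1175 and 1321 CPM in pXEN and 449.9 and 459 in ES (log2 difference 1.39 ± 0.20, adjusted p = 3.86e-04). Among the regulators Xbp1 was at 239, 243 and 322 CPM in pXEN and 45.6 and 62.4 in ES (log2 difference 2.31 ± 0.30, adjusted p = 1.87e-04). Atf6 was at 106, 194 and 157 CPM in pXEN and 49.8 and 57.7 in ES (log2 difference 1.502 ± 0.31, adjusted p = 0.00296), whereas the stress factor Atf4 was at 201, 239 and 221 CPM in pXEN and 217 and 243 in ES (adjusted p = 0.877) and the sensor Ern1 at 4.94, 4.56 and 4.59 CPM in pXEN and 4.11 and 6.24 in ES (adjusted p = 0.839), neither called.

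The promoters of some of these chaperones hold the ER stress response element, which is shown because the genes moved together. Its outer blocks, CCAAT and CCACG with 9 bases of any kind between them, were searched on both strands from 250 bases before to 50 bases after the RefSeq start (GRCm38.p6). This motif was chosen after the values were seen. It occurred in 39 of 32851 promoters (0.119%, counted per promoter). Counted per gene, it occurred in 6 of the 35 list genes that had a promoter: Hspa5, Calr, Hsp90b1, Pdia6, Dnajc3 and Canx. Of these, 5 were called higher, Hsp90b1 (a chaperone also called GRP94) by 1.35 ± 0.25, Pdia6 (a disulfide isomerase) by 1.22 ± 0.20 and Dnajc3 (a BiP co-chaperone) by 2.85 ± 0.33. Canx, the membrane chaperone calnexin, was at 124, 82.0 and 90.1 CPM in pXEN and 67.03 and 111 in ES and was not called (adjusted p = 0.702). Capitals mark the motif, which in Calr reads on the opposite strand, and the sequences are given in the direction of transcription. They lie at chr2:34772005-34772063 (plus strand, Hspa5), chr8:84847055-84847113 (minus, Calr), chr12:17266471-17266529 (plus, Pdia6), chr14:118937807-118937865 (plus, Dnajc3) and chr11:50325780-50325838 (minus, Canx), with the motif ending 46, 143, 79, 86 and 126 bases before the start.
Hspa5: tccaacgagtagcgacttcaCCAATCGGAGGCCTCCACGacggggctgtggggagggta
Calr: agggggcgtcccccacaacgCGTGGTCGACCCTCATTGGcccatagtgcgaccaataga
Pdia6: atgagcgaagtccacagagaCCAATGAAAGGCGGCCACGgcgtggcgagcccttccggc
Dnajc3: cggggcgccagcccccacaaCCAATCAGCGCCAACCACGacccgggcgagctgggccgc
Canx: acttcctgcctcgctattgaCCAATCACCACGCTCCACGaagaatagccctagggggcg

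**Figure D3:**
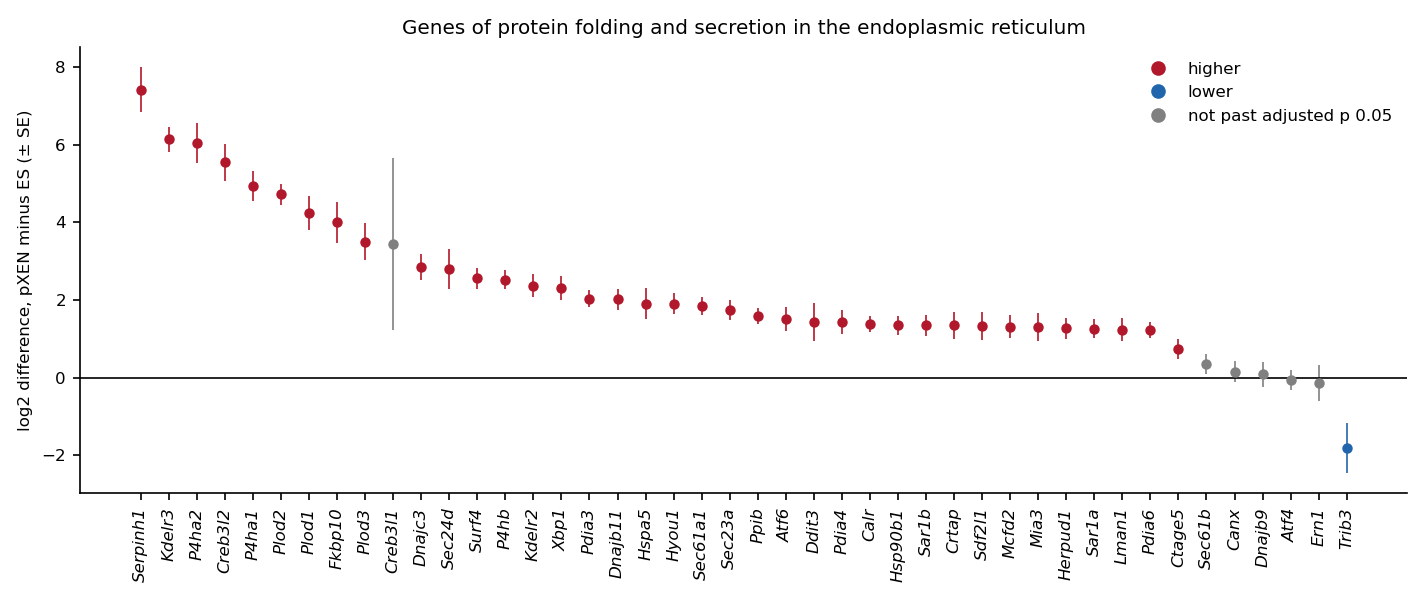
Log2 difference between pXEN and ES (± SE) for the tested genes of ER protein folding and secretion, coloured by call. Points run from Serpinh1 at 7.42 down to Trib3 at -1.80, with 37 of 44 called higher.

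Enzymes that build glycans changed in both directions. Of 31 tested glycosylation genes 12 were higher and 7 lower, with a median of 0.63, and 7 were higher without ES2 and 7 without ES3. Hs3st1, a heparan sulfate sulfotransferase, was at 146, 206 and 177 CPM in pXEN and 0 and 0.779 in ES, a ratio of 444-fold (95% interval 123 to 3673). Fut8, which adds core fucose, was at 141, 106 and 142 CPM in pXEN and 5.35 and 8.18 in ES (log2 difference 4.25 ± 0.31, adjusted p = 5.23e-06). Gcnt1, which starts branched O-glycans, was at 70.7, 115 and 70.9 CPM in pXEN and 2.47 and 2.73 in ES (log2 difference 5.02 ± 0.45, adjusted p = 1.65e-05). Ext1, which extends heparan sulfate, was at 173, 304 and 236 CPM in pXEN and 34.1 and 31.2 in ES (log2 difference 2.86 ± 0.34, adjusted p = 9.78e-05). Fut9, the fucosyltransferase that makes the SSEA-1 epitope of ES cells, had 0 counts in pXEN and 24.7 and 25.7 CPM in ES, at least 84.3-fold lower.

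Lysosomal and endocytic genes were higher in 21 of 41 tested members and lower in 1 (Lrp1; 3 without pXEN4), with a median of 1.08. Legumain (Lgmn), a lysosomal protease, was at 716, 305 and 597 CPM in pXEN and 24.3 and 27.7 in ES (log2 difference 4.37 ± 0.51, adjusted p = 1.59e-04). Acid lipase (Lipa) was at 59.6, 80.3 and 78.3 CPM in pXEN and 4.52 and 4.68 in ES (log2 difference 3.97 ± 0.37, adjusted p = 2.11e-05). Neu1, which removes sialic acid, was at 86.2, 134 and 89.0 CPM in pXEN and 14.8 and 10.5 in ES (log2 difference 3.02 ± 0.34, adjusted p = 7.07e-05). Cathepsin L (Ctsl) differed by 3.60 ± 0.56, cathepsin B (Ctsb) by 2.33 ± 0.32, cathepsin D (Ctsd) by 1.74 ± 0.29 and the sphingolipid activator precursor Psap by 2.57 ± 0.36. The regulators of lysosomal genes were at 9.21, 19.4 and 10.0 CPM in pXEN and 25.5 and 24.6 in ES for Tfeb and 36.2, 34.5 and 45.9 CPM in pXEN and 28.8 and 27.7 in ES for Tfe3 (adjusted p = 0.0846 and 0.167), neither called. Another motif, TCACGTGA, was searched for this list in the promoter windows described above. This motif was also chosen with earlier results of these data known. It occurred in 320 of 32851 promoters (0.974%, counted per promoter). Counted per gene, it occurred in 6 of the 35 list genes with a promoter. Of these genes, Ctsd and Gla were called higher, and Atp6v0d1, Atp6v1a, Mcoln1 and Rab5a were not called. Cathepsin H (Ctsh) ranged from no count in pXEN6 to 334 CPM in pXEN4, at 87.5, 334 and 0 CPM in pXEN and 0.822 and 0.390 in ES, and was not called (adjusted p = 0.0773).

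Secreted inhibitors and proteases of the blood and matrix were mostly higher. Of 20 tested coagulation and complement genes 12 were higher and 2 lower (1 without ES3), with a median of 2.46. F3, tissue factor, which starts coagulation, was at 307, 281 and 191 CPM in pXEN and 8.22 and 8.18 in ES (log2 difference 4.98 ± 0.39, adjusted p = 6.93e-06). Its inhibitor Tfpi was at 562, 686 and 237 CPM in pXEN and 19.3 and 27.7 in ES (log2 difference 4.39 ± 0.57, adjusted p = 3.85e-04). Plaur, the urokinase receptor, was at 98.7, 94.0 and 61.1 CPM in pXEN and 9.46 and 11.3 in ES (log2 difference 3.02 ± 0.32, adjusted p = 4.86e-05). F2rl1, a protease-activated receptor, was at 0.658, 2.28 and 0.861 CPM in pXEN and 44.4 and 30.4 in ES (log2 difference -4.82 ± 0.66, adjusted p = 3.19e-04). Among 27 tested proteases and inhibitors 14 were higher and 3 lower, 8 were higher without ES2, and 5 were lower without pXEN4. Timp2, an inhibitor of matrix metalloproteases, was at 243, 84.8 and 199 CPM in pXEN and 0.822 and 0.390 in ES, a ratio of 287-fold (95% interval 98.1 to 1394); Adamts9, which cleaves proteoglycans, was at 529.8, 473 and 322 CPM in pXEN and 3.70 and 8.96 in ES (log2 difference 6.11 ± 0.50, adjusted p = 1.25e-05). Adam10, a membrane sheddase, was at 233, 299 and 321 CPM in pXEN and 17.7 and 37.4 in ES (log2 difference 3.36 ± 0.37, adjusted p = 6.52e-05). The 3 lower members were Mmp2, which degrades type IV collagen, at 0.329, 0 and 1.15 CPM in pXEN and 17.7 and 9.35 in ES (log2 difference -4.65 ± 0.64, adjusted p = 2.66e-04), and Pcsk6 and Pcolce, with 1 count over the 3 pXEN lines and 152 over the 2 ES lines for Pcsk6 and 2 counts over the 3 pXEN lines and 148 over the 2 ES lines for Pcolce.

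Pluripotency factors were lower in 38 of 46 tested members of the naive list, with a median log2 difference of -5.26 (-4.88 with bounds), and their summed level was 1332 to 1572 CPM in pXEN against 9148 to 9380 in ES. Sox2 had 0 counts in all 3 pXEN lines and was at 205 and 231 CPM in ES, at least 728-fold lower. Esrrb, an orphan receptor of the naive network, likewise had none against 281 and 277 CPM (at least 933-fold lower). Nanog was at 698 and 1111 CPM in ES with 1 count in pXEN6 and none in pXEN2 or pXEN4. Klf2, a Kruppel-like factor of the naive state, was at 0.658, 0.854 and 2.58 CPM in pXEN and 129.5 and 127 in ES (log2 difference -6.49 ± 0.44, adjusted p = 3.93e-06). Tfcp2l1, a LIF target, was at 81.6, 81.4 and 53.4 CPM in pXEN and 589.7 and 554 in ES (log2 difference -2.99 ± 0.28, adjusted p = 2.23e-05).

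Transcripts of Pou5f1 (Oct4) and Zfp42 (Rex1) were lower but still present in every pXEN line. Pou5f1 (chromosome 17, 35506018 to 35510772, plus strand) was at 10.9, 39.0 and 18.7 CPM in pXEN and 998 and 813 in ES (log2 difference -5.30 ± 0.45, adjusted p = 2.19e-05). Zfp42 was at 17.8, 22.2 and 8.61 CPM in pXEN and 824 and 628 in ES (log2 difference -5.48 ± 0.38, adjusted p = 5.20e-06). Against the 3 mouse XEN lines of the series, pXEN was higher for Pou5f1 (adjusted p = 8.32e-04) and for Zfp42 (adjusted p = 2.58e-04). In XEN, Pou5f1 was at 0.181 ± 0.157 CPM and Zfp42 at 0.0881 ± 0.153. Both levels lay below the XEN floor of 3 counts over the group (0.302 CPM), so no fitted fold is given. Between pXEN and XEN 4.55% of all genes tested were called, and 0.918% of all genes tested were called higher in pXEN.

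Tdgf1, the Nodal co-receptor Cripto, was at 373 and 323 CPM in ES, Lefty2, a Nodal antagonist, at 164 and 109.9 CPM, Gdf3, a TGF-beta ligand, at 95.4 and 113 CPM, and none had a count in pXEN. Dppa5a, an RNA-binding protein of ES cells, was at 0.658, 2.56 and 0.861 CPM in pXEN and 1189 and 1095 in ES (log2 difference -9.64 ± 0.42, adjusted p = 1.65e-06). Alpl, the alkaline phosphatase used to stain ES colonies, had no count in pXEN and was at 79.8 and 79.9 CPM in ES (at least 267-fold lower).

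Not all members of the list were lower. Stat3 and Klf4 were the 2 called higher: Stat3, the effector of LIF, at 116, 185 and 131 CPM in pXEN and 71.5 and 55.0 in ES (log2 difference 1.19 ± 0.27, adjusted p = 0.00542), with an adjusted p of 0.0654 without ES3, and Klf4 at 45.1, 70.3 and 37.0 CPM in pXEN and 20.6 and 32.3 in ES (log2 difference 0.94 ± 0.32, adjusted p = 0.0384). For Klf4 the adjusted p was 0.0554 without pXEN2, 0.121 without pXEN4 and 0.266 without ES2. Lin28a, an RNA-binding protein that blocks let-7, was at 101, 73.2 and 98.7 CPM in pXEN and 90.9 and 37.0 in ES (adjusted p = 0.482), and Sall4, a zinc finger factor of ES cells and primitive endoderm, at 209, 126 and 239 CPM in pXEN and 176 and 171 in ES (adjusted p = 0.785). Lin28b, the relative of Lin28a, had no count in pXEN and 38.7 and 21.8 CPM in ES.

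The promoter of Nanog holds a composite Oct4 and Sox2 motif, shown because all 3 genes fell in the comparison. Its blocks TTNGCAT and NACAA, written without a gap, were chosen after the values were seen. They were searched on both strands of the same windows and occurred in 25 of 32851 promoters (0.0761%, counted per promoter). Counted per gene, they occurred in 1 of the 28 list genes with a promoter. Capitals mark the motif, which ends 63 bases before a RefSeq start of Nanog (chr6:122707394-122707445, plus strand, GRCm38.p6) and 139 bases before another.
Nanog: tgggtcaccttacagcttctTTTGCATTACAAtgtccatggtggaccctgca

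Most tested genes of later epiblast, germ cells and the 2-cell-like state were lower in pXEN than in ES. Of 12 tested epiblast and neural genes 8 were lower and none higher, at a median of -4.63 (-4.47 with bounds). Foxd3, a forkhead factor of the epiblast, had no count in pXEN and 22.2 and 26.9 CPM in ES, and Otx2, which drives exit from the naive state, none and 8.22 and 10.5 CPM. Of 12 tested germline genes 10 were lower and none higher; 6 were lower without ES3. Dazl, an RNA-binding protein of germ cells, was at 0, 0.285 and 0.287 CPM in pXEN and 3.70 and 33.1 in ES, with most of its ES counts in ES3, and Sohlh2, a germ cell factor, at 1.32, 0 and 0.861 CPM in pXEN and 25.9 and 30.0 in ES (log2 difference -5.23 ± 0.77, adjusted p = 4.67e-04). Asz1, a piRNA pathway protein, was at 30.9, 0 and 11.8 CPM in pXEN and 0.822 and 1.17 in ES, with no count in pXEN4, and was not called (adjusted p = 0.109). Of 8 tested 2-cell-like genes 6 were lower, 2 without ES2. Zscan4c, expressed in rare ES cells, had no count in pXEN and was at 11.1 and 13.3 CPM in ES; reads of the near-identical Zscan4 copies may be split among them, so their values are uncertain.

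In the FGF list of 24 tested genes 4 were higher (16.7%, against 18.2% of all genes) and 12 lower (50%, against 17.8%), with a median of -1.03. Fgf4, the ligand by which the epiblast induces primitive endoderm, had no count in pXEN and was at 76.1 and 102 CPM in ES (at least 299-fold lower). Fgf10 and Fgf3 were higher instead, Fgf10 at 85.6, 103 and 84.1 CPM in pXEN and 1.23 and 0.779 in ES (log2 difference 6.45 ± 0.49, adjusted p = 6.06e-06). Fgf3 was at 24.0, 38.4 and 44.5 CPM in pXEN and 0.822 and 1.56 in ES (log2 difference 4.85 ± 0.71, adjusted p = 4.93e-04). Of the receptors, Fgfr1 was at 0.329, 0 and 0 CPM in pXEN and 23.4 and 43.6 in ES, lower by a ratio of 339-fold (95% interval 60.1 to 13482), whereas Fgfr3 was at 46.4, 62.6 and 60.0 CPM in pXEN and 0.411 and 1.17 in ES (log2 difference 6.07 ± 0.61, adjusted p = 3.64e-05). Fgfr4 was at 20.1, 16.5 and 21.5 CPM in pXEN and 1.23 and 2.73 in ES (log2 difference 3.25 ± 0.49, adjusted p = 5.03e-04). Fgfr2 was at 0.329, 1.99 and 0.287 CPM in pXEN and 0 and 1.95 in ES and too low to be tested.

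Among target and feedback genes of ERK, Etv4, Etv5, Dusp6, Spred1 and Ccnd1 were lower in pXEN, and Egr1, Fos, Dusp4, Spred2 and Spry2 were not called (adjusted p = 0.309 for Egr1, 0.0787 for Fos and 0.259 for Dusp4). The MEK inhibitor was in the ES medium. Etv4, an ETS factor induced by FGF, was at 3.29, 4.27 and 2.30 CPM in pXEN and 48.9 and 34.3 in ES (log2 difference -3.65 ± 0.37, adjusted p = 3.53e-05). Its relative Etv5 was at 4.94, 21.4 and 0.861 CPM in pXEN and 325 and 324 in ES (log2 difference -5.15 ± 0.99, adjusted p = 0.00638). The ERK phosphatase Dusp6 was at 0.658, 0 and 0.287 CPM in pXEN and 37.8 and 9.35 in ES and the inhibitor Spred1 at 1.32, 1.99 and 0.287 CPM in pXEN and 35.0 and 16.4 in ES (log2 difference -4.38 ± 0.56, adjusted p = 1.70e-04). Spry2, another feedback inhibitor, was at 59.2, 67.8 and 58.5 CPM in pXEN and 81.4 and 40.5 in ES without a call (adjusted p = 0.969). Ccnd1, cyclin D1, had 1 count over the 3 pXEN lines and 263 over the 2 ES lines.

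Among PDGF, Kit and insulin-like growth factor genes, the receptors Kit and Pdgfra were higher, and Pdgfa, Pdgfc, Igf2 and Igfbp2 lower. Kit, the stem cell factor receptor, was at 208, 575 and 365 CPM in pXEN and 20.6 and 40.1 in ES (log2 difference 3.65 ± 0.46, adjusted p = 2.23e-04). Pdgfa, a ligand of Pdgfra, was at 1.65, 2.85 and 2.30 CPM in pXEN and 34.5 and 23.4 in ES (log2 difference -3.64 ± 0.46, adjusted p = 1.46e-04). The related ligand Pdgfc was at 0, 0 and 0.287 CPM in pXEN and 19.3 and 27.3 in ES. Igfbp2, an IGF-binding protein, had 1 count over the 3 pXEN lines and 1478 over the 2 ES lines. Igf2 had 0 counts in pXEN and 10.3 and 4.29 CPM in ES. Igf1, the related ligand, was at 20.4, 55.0 and 29.3 CPM in pXEN and had no count in ES (at least 58.1-fold higher, adjusted p = 1.97e-04). Over the list of 24 tested genes 3 were higher and 8 lower.

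The LIF receptor was higher in pXEN, and genes induced by its effectors moved in both directions. Lifr was at 447, 673 and 400.4 CPM in pXEN and 28.0 and 47.9 in ES (log2 difference 3.74 ± 0.37, adjusted p = 2.82e-05). Socs3, a STAT3 feedback inhibitor, was at 61.9, 78.6 and 41.9 CPM in pXEN and 9.05 and 13.6 in ES (log2 difference 2.42 ± 0.38, adjusted p = 6.63e-04). Socs2 and the kinase Pim1, which cytokine signals induce, were lower, Socs2 at 1.97, 1.71 and 1.43 CPM in pXEN and 91.3 and 52.2 in ES (log2 difference -5.37 ± 0.39, adjusted p = 5.23e-06). Pim1 was at 12.8, 3.99 and 16.6 CPM in pXEN and 106 and 106 in ES (log2 difference -3.25 ± 0.48, adjusted p = 5.85e-04). Over 17 tested genes 10 were higher and 4 lower; without ES2 3 were higher, and without pXEN2 6 were. Socs3 also exceeded its level in the mouse XEN lines (8.57 ± 2.52 CPM, log2 difference 2.84 ± 0.33, adjusted p = 8.08e-04).

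Nodal had no count in pXEN, Bmp4 was lower and Bmp2 higher. Nodal was at 83.5 and 108 CPM in ES and Bmp4 at 10.3 and 7.41 CPM, with 0 counts of either in pXEN. Bmp2 showed the reverse, at 27.3, 51.2 and 32.1 CPM in pXEN and 0 counts in ES (at least 61.5-fold higher, adjusted p = 1.93e-05). The BMP antagonist noggin (Nog) was higher too, at 125, 83.7 and 110.5 CPM in pXEN and 0 and 1.17 in ES. The receptor Bmpr2 was at 149, 181 and 225 CPM in pXEN and 37.0 and 44.4 in ES (log2 difference 2.18 ± 0.26, adjusted p = 1.00e-04). The TGF-beta receptor Tgfbr2 was at 27.0, 59.5 and 17.5 CPM in pXEN and 0.822 and 0.779 in ES (log2 difference 5.37 ± 0.93, adjusted p = 0.00169). The transducer Smad2 was at 143, 191 and 167 CPM in pXEN and 70.3 and 64.3 in ES (log2 difference 1.31 ± 0.29, adjusted p = 0.00447). Over 36 tested genes 13 were higher and 8 lower, and 8 were higher without ES3.

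The Wnt receptors Fzd10 and Fzd5 fell, and the ligands Wnt4 and Wnt7b rose. Fzd10, a Wnt receptor, had no count in pXEN and 44.0 and 26.1 CPM in ES, and Fzd5 was at 1.65, 1.71 and 1.72 CPM in pXEN and 29.2 and 23.4 in ES (log2 difference -3.92 ± 0.39, adjusted p = 3.14e-05). Sfrp1 and Notum, secreted Wnt inhibitors, had no count in pXEN, against 32.5 and 29.2 CPM in ES for Sfrp1 and 11.9 and 37.0 CPM for Notum. Wnt4 was at 27.3, 14.0 and 25.3 CPM in pXEN and 0 and 0.779 in ES and Wnt7b at 32.2, 18.2 and 41.9 CPM in pXEN and 0 and 1.95 in ES (log2 difference 4.90 ± 0.83, adjusted p = 0.00124). The central transducer Ctnnb1 (beta-catenin) was at 614, 720.3 and 610.4 CPM in pXEN and 644 and 592 in ES (adjusted p = 0.801). Shares of tested Wnt genes called were 18.8% higher (against 18.2% of all genes) and 28.1% lower (against 17.8%). Over 32 tested Wnt genes 6 were higher, 3 without ES2, and 9 lower.

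Of 28 tested Notch, hedgehog and ephrin genes 7 were higher, 3 without ES2, and 10 lower. Although Ihh was higher, the hedgehog target Gli1 had 3 counts over the 3 pXEN lines and 66 over the 2 ES lines, and Gli2 had none in pXEN and 11.9 and 7.41 CPM in ES. The Notch ligand Jag1 was at 0.658, 2.85 and 2.58 CPM in pXEN and 14.4 and 23.8 in ES (log2 difference -3.19 ± 0.49, adjusted p = 5.72e-04). Efnb2, an ephrin, was at 41.8, 72.9 and 46.8 CPM in pXEN and 9.46 and 10.5 in ES (log2 difference 2.43 ± 0.34, adjusted p = 3.06e-04). Its receptor Ephb4 was at 48.7, 84.3 and 52.5 CPM in pXEN and 16.4 and 16.4 in ES (log2 difference 1.91 ± 0.35, adjusted p = 0.00163), while the receptor Epha4 was lower at 9.21, 7.12 and 10.9 CPM in pXEN and 37.8 and 74.0 in ES (log2 difference -2.62 ± 0.37, adjusted p = 3.52e-04).

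Of 11 tested retinoid genes 5 were higher and 3 lower. Beside Stra6, higher genes included the retinoic acid hydroxylase Cyp26a1, at 12.2, 21.4 and 42.2 CPM in pXEN and 0 and 0.779 in ES, and the retinal reductase Dhrs3, at 11.5, 10.8 and 11.2 CPM in pXEN and 0.822 and 0.390 in ES. The lower genes were the receptors Rarg and Rxra and Crabp1, a cytoplasmic retinoic acid-binding protein, which had 1 count over the 3 pXEN lines and 71 over the 2 ES lines. Rarg was at 2.30, 1.71 and 5.17 CPM in pXEN and 123 and 72.9 in ES (log2 difference -4.97 ± 0.54, adjusted p = 8.06e-05). Rxra was at 1.32, 1.71 and 2.87 CPM in pXEN and 9.46 and 37.4 in ES (log2 difference -3.54 ± 0.58, adjusted p = 8.46e-04). Rarb, itself a retinoic acid target, was higher at 4.28, 4.56 and 5.17 CPM in pXEN without a count in ES. Genes of cyclic AMP and adenosine signalling included Adora1, an adenosine receptor, at 41.8, 79.2 and 69.2 CPM in pXEN and no count in ES (at least 106-fold higher, adjusted p = 9.28e-05), the adenylyl cyclase Adcy6 at 37.8, 28.5 and 40.8 CPM in pXEN and 1.64 and 1.56 in ES (log2 difference 4.44 ± 0.42, adjusted p = 2.17e-05). The receptor-modifying protein Ramp2 was at 57.6, 49.3 and 66.6 CPM in pXEN and 2.47 and 1.95 in ES (log2 difference 4.69 ± 0.49, adjusted p = 4.52e-05). Over 17 tested genes 7 were higher and 3 lower.

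**Figure D4:**
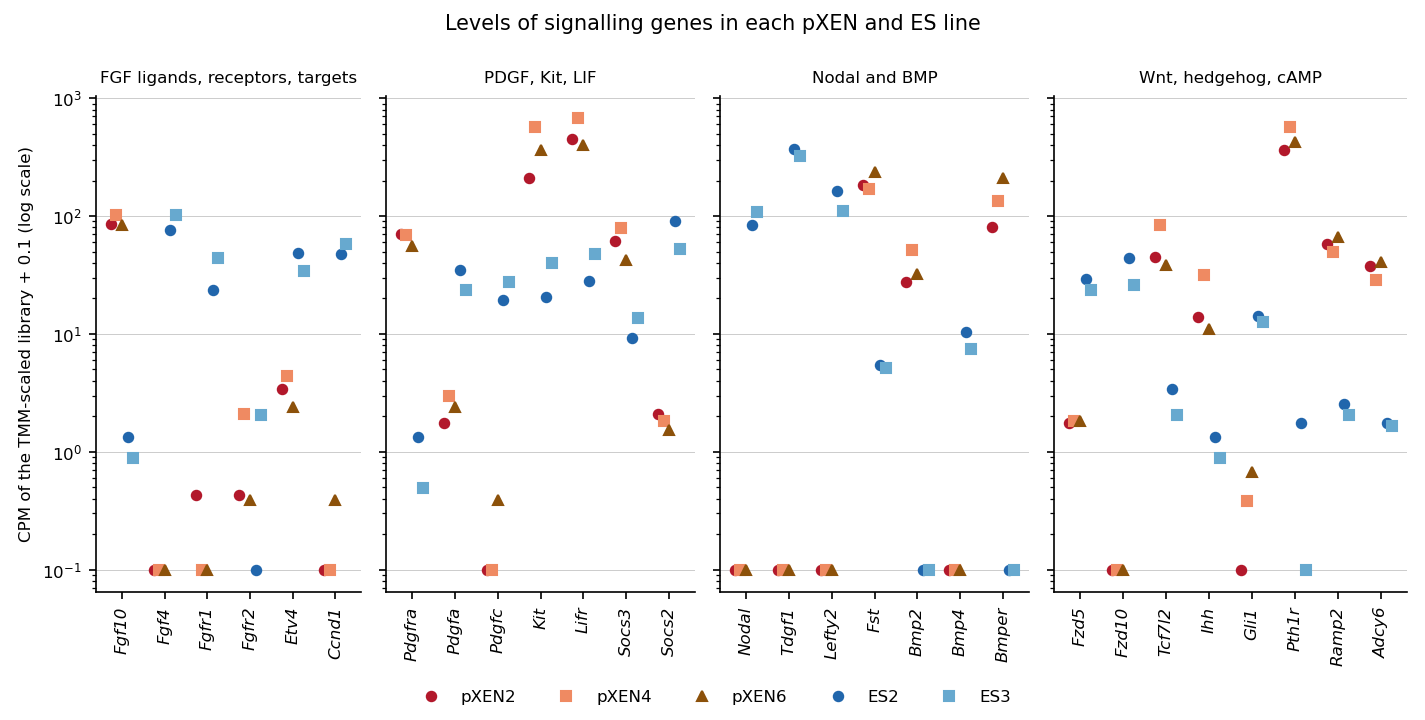
Level of ligands, receptors and target genes of signalling pathways in each of the 3 pXEN and 2 ES lines, as CPM of the TMM-scaled library plus 0.1 on a log axis. Fgf4 and Nodal are at 0 counts in all 3 pXEN lines, and Lifr and Kit are higher in each pXEN line than in either ES line.

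Hippo pathway genes were higher in 12 of 23 tested members and lower in 3, at a median of 1.16, with 7 higher without ES2 and 1 lower without ES2 and without ES3. Ctgf, a target of the YAP co-activator, was at 1252, 521 and 1027 CPM in pXEN and 65.4 and 85.0 in ES (log2 difference 3.63 ± 0.43, adjusted p = 1.61e-04). Other genes of the list linked to YAP were mixed. Crim1 and Amotl2 were higher, and Axl was lower (log2 difference -2.12, adjusted p = 0.0211). Cyr61 and Ankrd1 were not called (adjusted p = 0.118 and 0.177). Amot, a junctional regulator of YAP, was at 22.0, 42.4 and 18.7 CPM in pXEN and 2.06 and 1.95 in ES (log2 difference 3.77 ± 0.62, adjusted p = 8.10e-04). The DNA-binding partner Tead1 was at 291, 288 and 296 CPM in pXEN and 90.5 and 149 in ES (log2 difference 1.28 ± 0.24, adjusted p = 0.00194), with nearly equal values in the 3 pXEN lines. Fstl1, a secreted glycoprotein, was at 0, 35.9 and 8.90 CPM in pXEN and 245 and 51.1 in ES and was not called (adjusted p = 0.0839).

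Of the genes of DNA methylation, the TET enzymes that remove it changed, Tet1 and Tet2 downward and Tet3 upward. Of 22 tested members 2 were higher and 8 lower, with a median of -0.65. Tet1 was at 15.1, 14.8 and 7.17 CPM in pXEN and 319.9 and 349.6 in ES (log2 difference -4.76 ± 0.31, adjusted p = 3.27e-06). Tet2 was at 2.96, 9.68 and 3.16 CPM in pXEN and 114 and 129 in ES (log2 difference -4.50 ± 0.64, adjusted p = 7.14e-04). Tet3 went the other way, at 33.9, 24.8 and 30.7 CPM in pXEN and 4.52 and 12.9 in ES (log2 difference 1.76 ± 0.39, adjusted p = 0.00453). The imprint guardian Zfp57 was at 2.96, 5.41 and 4.88 CPM in pXEN and 79.0 and 80.3 in ES (log2 difference -4.15 ± 0.33, adjusted p = 7.20e-06). Its co-repressor Trim28 was at 193, 207 and 279.5 CPM in pXEN and 597 and 755 in ES (log2 difference -1.58 ± 0.22, adjusted p = 3.31e-04). None of the Dnmt genes on the list passed the threshold: Dnmt1 was at 144, 116 and 112 CPM in pXEN and 148 and 149 in ES (adjusted p = 0.469), Dnmt3b at 91.8, 53.2 and 77.5 CPM in pXEN and 109 and 102 in ES (0.275) and Dnmt3l at 55.3, 168 and 22.7 CPM in pXEN and 364 and 206 in ES (0.0999). Dnmt3a was close to it, at a mean of 7.25 CPM in pXEN and 15.1 in ES (log2 difference -1.05, adjusted p = 0.0514). The other lower members were Hells (log2 difference -1.61, adjusted p = 5.50e-04), Uhrf1 (-0.70, 0.0444), Setdb1 (-0.99, 0.00971) and Dppa3 (adjusted p = 0.00441). Besides Tet3, the higher member was Mbd2 (log2 difference 2.28, adjusted p = 5.43e-04).

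Of 32 tested Polycomb genes 7 were higher (21.9%, against 18.2% of all genes) and 9 lower (28.1%, against 17.8%). Among accessory subunits of PRC2, Jarid2 was lower at 25.01, 32.5 and 23.5 CPM in pXEN and 216 and 324 in ES (log2 difference -3.32 ± 0.31, adjusted p = 1.88e-05), Phf1 was higher at 6.58, 15.9 and 7.46 CPM in pXEN and 2.88 and 4.29 in ES (log2 difference 1.47 ± 0.50, adjusted p = 0.0398), and Aebp2 was not called (adjusted p = 0.843). For Phf1 the adjusted p was 0.134 without pXEN4, 0.210 without ES2, 0.0917 without ES3 and 0.0687 with DESeq2. Mtf2 was lower at 17.4, 15.9 and 20.1 CPM in pXEN and 142 and 153 in ES (log2 difference -3.05 ± 0.23, adjusted p = 5.71e-06), as was Phf19 at 0.658, 0 and 0.287 CPM in pXEN and 5.35 and 10.1 in ES (adjusted p = 0.00285). The core subunits Suz12 and Eed were lower by smaller amounts, -1.46 ± 0.27 and -1.58 ± 0.29, and the catalytic subunit Ezh2 was at 109, 102 and 83.2 CPM in pXEN and 120.1 and 96.7 in ES (adjusted p = 0.748). In PRC1, Phc1 was lower at 12.8, 8.54 and 13.8 CPM in pXEN and 112 and 84.2 in ES (log2 difference -3.06 ± 0.31, adjusted p = 3.60e-05), whereas Cbx8 was higher at 11.2, 9.97 and 17.2 CPM in pXEN and 1.23 and 1.95 in ES (log2 difference 2.97 ± 0.52, adjusted p = 0.00121). Yaf2 was at 32.9, 41.6 and 43.9 CPM in pXEN and 6.17 and 10.9 in ES (log2 difference 2.20 ± 0.37, adjusted p = 8.76e-04). Without ES2, 4 members were higher.

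Imprinted genes were lower in 12 of 31 tested members and higher in 4, at a median of -1.25. Zdbf2 and Slc38a4, both expressed from the paternal allele, had 0 counts in pXEN, against 66.6 and 92.8 CPM in ES for Zdbf2 and 41.5 and 59.2 CPM for Slc38a4. Mest was at 6.25, 3.42 and 0.287 CPM in pXEN and 129 and 162 in ES (log2 difference -5.47 ± 0.62, adjusted p = 1.81e-04). The maternally expressed RNAs of the Dlk1-Dio3 region were lower together, Meg3 at 0, 3.42 and 0 CPM in pXEN and 109.8 and 134 in ES (log2 difference -6.64 ± 0.97, adjusted p = 0.00127) and Mirg at 1 count over the 3 pXEN lines and 104 over the 2 ES lines. Sfmbt2, a Polycomb-related gene imprinted in extraembryonic tissue, was higher, at 551, 374 and 508 CPM in pXEN and 18.1 and 46.8 in ES (log2 difference 3.88 ± 0.54, adjusted p = 5.08e-04), as were H13 at 103, 116 and 151 CPM in pXEN and 30.4 and 24.6 in ES (log2 difference 2.16 ± 0.30, adjusted p = 2.68e-04). Gnas was at 218, 274 and 325 CPM in pXEN and 97.0 and 56.5 in ES (log2 difference 1.83 ± 0.31, adjusted p = 0.00106). H19 was at 0.658, 0.854 and 3.73 CPM in pXEN and 0 and 11.3 in ES and was not called.

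Of 32 tested glycolysis and hypoxia genes 5 were higher (15.6%, against 18.2% of all genes) and 7 lower (21.9%, against 17.8%), or 4 lower without ES2. Epas1, the hypoxia factor HIF-2 alpha, was at 467, 400.3 and 316 CPM in pXEN and 40.7 and 42.5 in ES (log2 difference 3.24 ± 0.26, adjusted p = 8.72e-06). Its target Vegfa was at 46.7, 80.0 and 40.2 CPM in pXEN and 5.35 and 12.1 in ES (log2 difference 2.66 ± 0.47, adjusted p = 0.00146). Other hypoxia genes of the list went both ways. Egln3 and P4ha1 were also higher. Kdm3a (log2 difference -2.96, adjusted p = 1.65e-05) and Pdk1 (log2 difference -3.63, adjusted p = 0.00372) were lower, and Bnip3 and Ndrg1 were not called. The glycolytic enzyme Pfkp was lower at 2.63, 0 and 0.574 CPM in pXEN and 21.0 and 36.2 in ES (log2 difference -4.76 ± 0.79, adjusted p = 0.00105). Of the lactate carriers, Slc16a1 was higher at 1161, 1819.6 and 935 CPM in pXEN and 282 and 199.5 in ES (log2 difference 2.44 ± 0.43, adjusted p = 0.00178). Slc16a3 was at 0.329, 2.28 and 0.287 CPM in pXEN and 26.7 and 7.41 in ES and was called lower at an adjusted p of 0.0273, but had 0.189 without ES2, 0.0800 without pXEN2 and 0.0789 without pXEN6. Of 39 tested amino acid and one-carbon genes 6 were higher and 10 lower, 3 and 6 without ES2. With all lines, the shares of amino acid and one-carbon genes called were 15.4% higher and 25.6% lower. Slc7a3, an arginine carrier of ES cells, was at 0.658, 0 and 0 CPM in pXEN and 177 and 258 in ES, lower by a ratio of 1095-fold (95% interval 303 to 9056).

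Antioxidant enzymes were lower more often than higher, in 12 against 5 of 30 tested genes. Those shares were 40% lower (against 17.8% of all genes) and 16.7% higher (against 18.2%). The count of higher members was 2 without pXEN4, 3 without ES2 and 0 without ES3. Nqo1, an NRF2 target, was at 3.95, 4.84 and 0.574 CPM in pXEN and 56.3 and 50.7 in ES (log2 difference -4.09 ± 0.56, adjusted p = 3.00e-04). Mitochondrial superoxide dismutase Sod2 was at 46.4, 66.6 and 64.6 CPM in pXEN and 288 and 227 in ES (log2 difference -2.12 ± 0.24, adjusted p = 7.13e-05). The peroxiredoxin Prdx1 was at 487, 383 and 482 CPM in pXEN and 1514 and 975 in ES (log2 difference -1.47 ± 0.24, adjusted p = 7.44e-04). The regulator Nfe2l2 (NRF2) was at 32.6, 41.6 and 26.1 CPM in pXEN and 55.5 and 37.8 in ES (adjusted p = 0.238). Transferrin receptor (Tfrc), the iron importer, was lower at 89.2, 40.1 and 91.0 CPM in pXEN and 352 and 290.0 in ES (log2 difference -2.13 ± 0.40, adjusted p = 0.00240). Tcn2, a vitamin B12 carrier, was higher at 70.1, 81.4 and 95.3 CPM in pXEN and 5.76 and 8.96 in ES (log2 difference 3.47 ± 0.36, adjusted p = 4.52e-05). Fabp3, a fatty acid carrier, was higher at 635, 416 and 476 CPM in pXEN and 69.5 and 110.3 in ES (adjusted p = 1.00e-04). Of 36 tested cholesterol and lipid genes 8 were higher and 5 lower, and the count of higher members was 4 without pXEN4, 3 without ES2 and 4 without ES3, and that of lower members 2 without ES2. With all lines, the shares of cholesterol and lipid genes called were 22.2% higher (against 18.2% of all genes) and 13.9% lower (against 17.8%). Respiratory chain genes were nearly level, with 6 of 47 higher, 1 lower and a median of 0.25. The count of higher members was 2 without pXEN2, 3 without pXEN6, 0 without ES2 and 1 without ES3, and the lower member, Cox7c, lost its call when any 1 of these 4 lines was left out.

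With all lines, cell cycle genes were more often lower than higher. Of 45 tested cell cycle genes 5 were higher (11.1%, against 18.2% of all genes) and 13 lower (28.9%, against 17.8%). Higher members numbered 2 without ES2 and 2 without ES3. Lower members numbered 6 without ES2, where 1375 of all 11431 genes tested were lower. Cdkn1b, the inhibitor p27, was at 61.5, 88.8 and 81.2 CPM in pXEN and 21.0 and 14.8 in ES (log2 difference 2.11 ± 0.28, adjusted p = 2.00e-04). Cdk6, a partner of D cyclins, had no count in pXEN and 22.2 and 5.07 CPM in ES, and Rbl1, the pocket protein p107, was at 1.97, 3.99 and 5.17 CPM in pXEN and 20.1 and 22.6 in ES (log2 difference -2.502 ± 0.46, adjusted p = 0.00163). The mitotic genes Plk1 and Ccnb1 were at 113, 132 and 129 CPM in pXEN and 107 and 101 in ES (adjusted p = 0.490) and 227, 204 and 174 CPM in pXEN and 265 and 206 in ES (adjusted p = 0.505). Trp53 was lower at 50.02, 38.4 and 51.4 CPM in pXEN and 294 and 321 in ES (log2 difference -2.72 ± 0.25, adjusted p = 1.75e-05), and of 23 tested genes of its pathway 1 was higher (0 without pXEN2, pXEN6 or ES2) and 6 lower. Its target Cdkn1a (p21) was at 70.7, 65.8 and 81.2 CPM in pXEN and 35.4 and 49.5 in ES and Mdm2 at 70.4, 53.2 and 74.3 CPM in pXEN and 58.0 and 129 in ES, neither called (adjusted p = 0.103 and 0.311).

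Some of the highest fold changes belonged to genes of no list. Ptk6, Robo2, Klb and Pla2g12b had no count in ES. Ptk6, a cytoplasmic tyrosine kinase, was at 42.8, 88.5 and 63.1 CPM in pXEN (at least 108-fold higher), and Robo2, a Slit receptor, at 41.1, 52.7 and 66.0 CPM (at least 88.7-fold higher). Klb, the co-receptor for endocrine FGFs, was at 30.9, 82.9 and 32.4 CPM (at least 81.2-fold higher), and Pla2g12b, a secreted phospholipase relative, at 46.4, 39.0 and 35.0 CPM (at least 66.9-fold higher). Klb was highest in pXEN4. On the other side, Stmn2, a neuronal microtubule regulator, and Nup210, a nuclear pore protein, had no count in pXEN, against 135 and 115 CPM in ES for Stmn2 and 108 and 85.4 CPM for Nup210. Trh, a hormone precursor made by ES cells, was at 795 and 169.9 CPM in ES with no count in pXEN; its adjusted p was 0.0152, 0.0573 without pXEN4 and 0.164 with no count filter.

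Regulators of RNA were more often lower than higher, 14 against 5 of 42 tested genes, with 8 lower without ES2 and 7 without ES3. With all lines, the shares called were 11.9% higher (against 18.2% of all genes) and 33.3% lower (against 17.8%). Mbnl2, a splicing regulator, was higher at 172, 138 and 109 CPM in pXEN and 14.0 and 24.2 in ES (log2 difference 2.87 ± 0.32, adjusted p = 6.53e-05). Ago1, an Argonaute that carries small RNAs, was lower at 15.8, 17.4 and 18.9 CPM in pXEN and 57.2 and 45.2 in ES (log2 difference -1.56 ± 0.25, adjusted p = 7.18e-04), whereas Dicer1, which cuts their precursors, was at 47.4, 18.2 and 34.7 CPM in pXEN and 31.7 and 44.0 in ES (adjusted p = 0.738).

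Several X-linked genes were lower in pXEN. Nr0b1 (DAX1), a nuclear receptor that binds Oct4, had no count in pXEN, against 40.3 and 23.8 CPM in ES. The chromatin remodeller Atrx was at 34.9, 25.9 and 23.5 CPM in pXEN and 159.6 and 222 in ES (log2 difference -2.76 ± 0.25, adjusted p = 1.80e-05). The deubiquitinase Usp9x was at 118, 108 and 116 CPM in pXEN and 227 and 495 in ES (log2 difference -1.66 ± 0.29, adjusted p = 0.00120). Ftx, a noncoding RNA of the X-inactivation centre, was at 23.7, 41.0 and 32.7 CPM in pXEN and 8.22 and 11.3 in ES (log2 difference 1.73 ± 0.38, adjusted p = 0.00478; 0.0535 without ES2). It was the single higher gene of 29 tested on the list of sex chromosome genes, and 7 were lower. The share lower was 24.1%, against 24.7% of all tested genes on the X chromosome and 17.8% of all genes. The median of X chromosome genes was 0.71 higher on the log2 scale in ES3 than in ES2, which enters the ES level of such genes. The X-linked glycolytic gene Pgk1 was at 355, 324 and 344 CPM in pXEN and 322 and 286 in ES (adjusted p = 0.733).

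Interferon-related membrane proteins were lower in pXEN. Ifitm2 was at 1.97, 2.85 and 10.0 CPM in pXEN and 131 and 183 in ES (log2 difference -4.96 ± 0.52, adjusted p = 6.92e-05), and Ifitm1 had no count in pXEN and 49.3 and 35.1 CPM in ES. The adaptor Myd88 was higher at 40.5, 32.5 and 20.1 CPM in pXEN and 4.52 and 5.46 in ES (log2 difference 2.62 ± 0.48, adjusted p = 0.00169). Of 24 tested immune genes 6 were higher and 6 lower, with 3 higher without ES2 and 2 without ES3. Ion transport genes included the chloride exchanger Clcn5, at 137, 169.7 and 130.3 CPM in pXEN and 5.76 and 17.5 in ES (log2 difference 3.63 ± 0.40, adjusted p = 6.05e-05). Atp1b1, a subunit of the sodium pump, was at 167, 194 and 160.1 CPM in pXEN and 29.6 and 46.8 in ES (log2 difference 2.18 ± 0.31, adjusted p = 3.45e-04). S100g, a calcium-binding protein, was at 13.5, 29.0 and 17.5 CPM in pXEN without a count in ES (at least 33.3-fold higher, adjusted p = 0.00124).

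Markers of other cell types were summed over each list. The 23 fibroblast genes summed to 20.4 to 25.6 CPM in pXEN and 25.3 to 38.2 in ES, 12 of them at 0 counts in pXEN and 8 in ES, and Col1a2, Col3a1, Dcn and Lum had 0 counts in both. In the mouse XEN lines of the series the same sum was 858 to 1131 CPM. The trophoblast list summed to 80.9 to 120 CPM in pXEN, where Elf5, Tfap2c and Tpbpa had 0 counts but the shared factor Tead4 was higher than in ES (above), and to 328 to 354 in ES, where its member Esrrb was at 281 and 277 CPM. Mesoderm genes summed to 3.95 to 5.45 CPM in pXEN and 21.0 to 37.0 in ES. Blood and endothelial genes summed to 149 to 482 CPM in pXEN and 30.4 to 51.1 in ES, with 6 and 5 of the 15 genes at 0 counts. Among them, Ptprc had 0 counts in both groups, Pecam1 had 0 in pXEN and 12.7 and 26.9 CPM in ES, and Cdh5 and Tek rose. Tek, an angiopoietin receptor, was at 60.9, 104 and 33.3 CPM in pXEN and 7.40 and 12.1 in ES (log2 difference 2.75 ± 0.58, adjusted p = 0.00489), with an adjusted p of 0.0583 without ES2. The part of other cell types in the results was not tested.

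The 3 pXEN lines were not alike in every gene. Xist, the RNA that silences an X chromosome, was at 0, 784 and 149.8 CPM in pXEN and 0.411 and 14.0 in ES, so it was high in the female lines pXEN4 and pXEN6, low in the female line ES3 and near 0 in the male lines. Its antisense partner Tsix had 1 count over the 3 pXEN lines and 106 over the 2 ES lines. Prtg, a cell surface receptor, was at 7.57, 0.854 and 110.5 CPM in pXEN, with pXEN6 far above the others. Tmem47, a membrane protein, had no count in pXEN4 and was at 12.8, 0 and 31.6 CPM. Xist, Prtg and Tmem47 were not called against ES, whereas Tsix was called lower.

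A test for a difference between sexes in the pXEN to ES change called 0 of 10895 genes with edgeR's quasi-likelihood interaction test, which had 2 residual degrees of freedom, and 326 genes had an unadjusted p under 0.05. Without pXEN6 it called 5: Grb10, Fstl1, Rn45s, Xlr3a and Dusp9. With 1 male pXEN line and 1 line of each sex in ES, sex and line could not be separated.

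Whole chromosomes differed in their typical level, which is described without a test. Over 7768 genes at 5 CPM or more in both groups, the median log2 difference of chromosome 8 was -0.51 in pXEN2, -0.45 in pXEN4 and -0.37 in pXEN6 against the ES mean, with the median over all genes between -0.03 and 0.01. Of the 584 tested genes of chromosome 8, 30.1% were lower and 12.0% higher. All 3 lines share the ES lines as reference. Other shifts were seen in some lines only: chromosome 6 was at 0.47 in pXEN2, 0.48 in pXEN6 and -0.04 in pXEN4, chromosome 17 at -0.31 in pXEN2, -0.32 in pXEN6 and -0.03 in pXEN4, and chromosome 19 at 0.69 in pXEN4, -0.02 in pXEN2 and -0.14 in pXEN6. Chromosome 12 was at 0.46 and chromosome 14 at 0.46 in pXEN2, and chromosome 1 at 0.33 and chromosome 12 at 0.30 in pXEN6. The X chromosome was at -0.31 in pXEN2 and -0.29 in pXEN4 and 0.0035 in pXEN6. The X chromosome was 0.71 higher in ES3 than in ES2, while the autosomes lay between -0.13 and 0.09. Between the female pXEN lines and the male one, X differed by 0.14. That lay within the range of the autosomes for the same lines, -0.36 to 0.28. Copy number was not measured in these data.

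**Figure D5:**
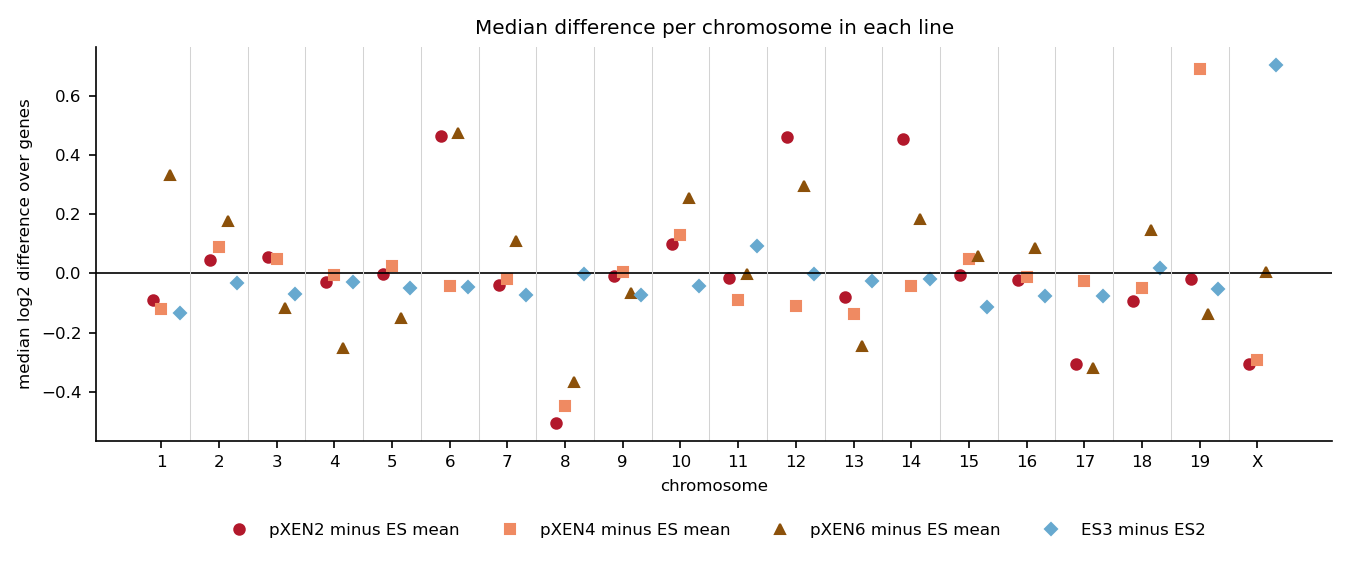
Median log2 difference over genes of each chromosome, for each pXEN line against the ES mean and for ES3 against ES2. Chromosome 8 lies below 0 in all 3 pXEN lines (-0.51 to -0.37), chromosome 19 is high in pXEN4 (0.69), and X is high in ES3 against ES2 (0.71).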

How the data were processed

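Total RNA of 5 mouse lines (3 pXEN, 2 ES) was sequenced as rRNA-depleted, strand-specific, paired-end libraries, per the labels' protocols. The submitters' processing notes name CASAVA 1.8.2, Trimmomatic 0.33, STAR 2.5.1, DESeq2 and the mm10 build. No source used here names the annotation behind the counts. The deposited tables hold whole-number read counts per gene, per the file headers and values, and the reverse-strand column was used, which held 98.9% to 99.3% of the reads that either strand assigned. The 4 rows of unassigned reads (73.4% to 78.3% of all reads) were left out. Rows for Rn45s were kept, so counts outside it were 1635626 to 2295390 per line, and this number sets the precision. The tables of the pXEN lines carry the name XENP with the same line numbers, whereas titles and cell type say pXEN, and the titles were followed.

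Counts were tested with edgeR 4.0.16 (R 4.3.3): TMM scaling, filterByExpr by group with a minimum count of 10, and a robust quasi-likelihood fit of all 8 mouse libraries, in which the 3 XEN lines add to the estimate of spread, with the contrast pXEN minus ES and Benjamini-Hochberg adjustment over the genes tested. SE is the log2 difference divided by the square root of F. Steps were tested on simulated data. A fold against a group with 0 counts was set against a floor of 3 counts over the group, 0.299 CPM in pXEN and 0.600 CPM in ES, and given as a bound. A fold against 1 to 3 counts is a ratio of counts with an exact 95% interval. Both cover counting error only. Chromosome medians used genes at 5 CPM or more in both groups. Gene positions come from GENCODE vM21 (GRCm38), which matched 23376 of 24411 symbols, and promoters from RefSeq (GRCm38.p6).

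The members, the 45 lists and the tests were chosen with earlier results of these data known. Genes were named by rule: the 20 highest and 20 lowest fold changes without overlap at a mean of 10 CPM or more in the higher group, up to 5 called members of each list by smallest adjusted p, the 10 most abundant genes of each group per kb of exon, and the 10 genes with the widest range within pXEN. Another 112 genes, uncalled ones among them, were named as examples after their values were seen. A few of the genes chosen in this way are not reported here. Alternatives were 14 other settings of scaling, filter, count column, covariate, tool (DESeq2 1.42.0 among them) and libraries.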

Additional observations from a re-analysis of the deposited data

How the results depend on the processing

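Across the 14 alternatives the count of higher genes ran from 1168 (without ES2) to 2053 (no count filter) and that of lower genes from 1296 (at least 50 counts in 2 libraries) to 2490 (no count filter), against 1978 and 1936. Leaving out 1 line gave 1168 to 1818 higher and 1358 to 1761 lower, and 0 to 5 genes with a sex difference (5 without pXEN6). Upper-quartile scaling moved the median of all genes by -0.104 and the 50-count filter by -0.103 on the log2 scale. Of the 229 called genes named by rule, 202 were called under every alternative, and none of the 229 changed sign. Of the 62 called genes named besides, 55 were. Most list counts printed that moved by over 1.5 times when 1 line was left out are given beside the list. Without a count filter 16 germline, 10 2-cell-like and 16 Wnt genes were lower, against 10, 6 and 9. At 50 counts the lower counts were 2 germline (10), 0 2-cell-like (6), 1 epiblast (8), 4 PDGF and Kit (8) and 4 Notch (10). Oxidative phosphorylation genes numbered 6 higher, 2 with upper-quartile scaling and 0 without ES2. No paired analysis was possible because the pXEN and ES lines share 1 line number, 2.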

Other observations

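Some of the genes most abundant per kb of exon were abundant in both groups. The ribosomal protein gene Rpl19 was at 1064 ± 57.2 CPM in pXEN and 1033 ± 5.21 in ES (SD, n = 3 and 2; log2 difference 0.04 ± 0.19, adjusted p = 0.889) and Rplp0 at 1703 ± 202 CPM in pXEN and 1971 ± 467 in ES (log2 difference -0.21 ± 0.20, adjusted p = 0.435), whereas Npm1, a nucleolar protein, was lower in pXEN, at 1309 ± 87.4 CPM in pXEN and 2991 ± 176 in ES (log2 difference -1.19 ± 0.28, adjusted p = 0.00669). Neither ribosomal protein gene was called.

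Chromosome medians were also computed for the 3 mouse XEN lines of the series against the same ES mean, as a description without a test. Chromosome 8 was at -0.54 in XEN1, -0.49 in XEN2 and -0.13 in XEN5. Chromosome 6 was at -0.10, 0.54 and 0.47, and chromosome 19 at 0.62, 0.18 and 0.50, in the same order. Chromosome 15 was at 0.48 and chromosome 16 at 0.41 in XEN2. With genes at 20 CPM or more the pXEN to ES median of chromosome 8 was -0.41, and with unstranded counts -0.45, against -0.43; both settings were chosen after seeing the data. Copy number and karyotype were not measured.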
